A study of Mus musculus with 4 samples.

Results

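Solute carriers are the largest group of membrane transport proteins. They are numbered in families, and a family often shares a substrate: SLC38 carries neutral amino acids, SLC39 brings zinc and related metals into the cytosol, SLC30 moves zinc out of it, SLC25 spans the inner mitochondrial membrane and SLC35 takes nucleotide sugars into the Golgi and the endoplasmic reticulum. In blood progenitors and mast cells they feed growth with amino acids and sugars, supply iron and glycine for heme, and return serotonin to cells that store it in granules. The genes described here are all those with a platform symbol of Slc followed by a digit, except the glucose transporter genes Slc2a1 and Slc2a3. They number 110 of the 6404 genes in the table, with 152 probe sets. Of these genes 77 had 1 probe set and 33 had more, and a gene's value was the mean of its probe sets. Members were sorted by the transported substrate, by family and with exceptions for single genes. Slc9a3r1 and Slc9a3r2 carry the symbol but encode scaffold proteins that bind transporters, and they are given apart.

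The cells were EML cells, a mouse blood progenitor line that is normally kept in stem cell factor (SCF). SCF binds and activates KIT, a receptor with tyrosine kinase activity. The EML cells carried, by retrovirus, the KIT mutant D816V in the kinase domain or the KIT mutant Del417-419insY in the extracellular domain. Both populations had been selected with geneticin, grown on without growth factor and sorted for KIT, so that each mutant is 1 transduced and selected population. Cells with unmutated KIT were not analysed here, and the labels give no culture time for the groups without SCF. There were 4 groups of 1 array each: D816V with 250 ng/mL SCF for 48 h, Del417-419insY with the same, D816V without SCF and Del417-419insY without SCF. The values are log2 values around a zero level that is not stated, so levels of different genes cannot be compared, and brightness over background was not analysed here. Among marker lists of cell types, the limma fit given below called 8 of 9 measured mast cell genes and all 3 dendritic genes higher in D816V cells. It called 4 of 6 erythroid, 3 of 4 megakaryocyte, 3 of 4 progenitor and 1 of 4 granulocyte and monocyte genes lower. The megakaryocyte and progenitor lists each also held 1 gene called higher. Over all genes 17.9% were called higher and 24.7% lower. The marker lists were chosen with earlier results of these data known, so their counts are not independent of these data. The samples are populations of cells, in which fewer cells of a type and less RNA per cell cannot be told apart. The D816V array with SCF had the lowest median, -0.20, and the others lay between -0.10 and -0.02. Values also spread more on the D816V arrays (SD 0.79 with SCF, 0.72 without) than on the Del417-419insY arrays (0.59 on each).

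More solute carrier genes were called higher than lower in D816V cells in the fit with both terms, but not in a fit without the SCF term. Over all genes fewer were called higher than lower in the deposited values, and more after rescaling. In a limma fit of genotype and SCF over all 4 arrays, 35 of the 110 were higher and 20 were lower at an adjusted p under 0.05, and 55 did not pass (50% called, against 42.6% of all genes). Over all 6404 genes 17.9% were called higher and 24.7% lower, so the share of members called higher was 31.8% and of those called lower 18.2%. The median genotype difference, D816V minus Del417-419insY, was 0.12 with SCF and 0.23 without SCF for the members, against -0.14 and -0.08 for all genes. Most differences were small: 6 members were 2-fold or more higher with SCF (all genes 6.34%) and 8 were lower (7.42%), and without SCF 5 were higher (6.29%) and 5 lower (4.2%). Those shares of members, 5.45%, 7.27%, 4.55% and 4.55%, lay near the shares of all genes. The error of this fit comes from how far the lines differ in their response to SCF, with 1 residual degree of freedom. It is moderated by a prior from all genes with 4.1 degrees of freedom, which outweighs the residual of the single gene. The error covers neither repeat arrays nor repeat populations. After scaling by cyclic loess, quantile normalization or median centring the median of all genes with SCF, -0.14 in the deposited values, lay between 0 and 0.04, and members were then 44 to 50 higher and 18 or 19 lower, against 1526 to 1720 higher and 1263 to 1387 lower genes in all. Without the SCF term 14 of the 110 members were higher and 16 lower, against 690 higher and 913 lower of the 6404 genes. More were then called lower than higher in both, and the shares of members lay near those of all genes.

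The genotype differences of a member in the presence and in the absence of SCF come from separate arrays. They had the same sign for 94 of 110 members (85.5%, all genes 84.8%), and correlated across the 110 genes with Pearson's r of 0.87 and Spearman's rho of 0.77. The genes share the 4 arrays and are not independent. Of the 6 members with the largest gap between these differences, 4 carry amino acids (Slc1a4, Slc7a5, Slc7a1 and Slc6a9), and the others were Slc37a3 and Slc30a1.

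**Figure D1:**
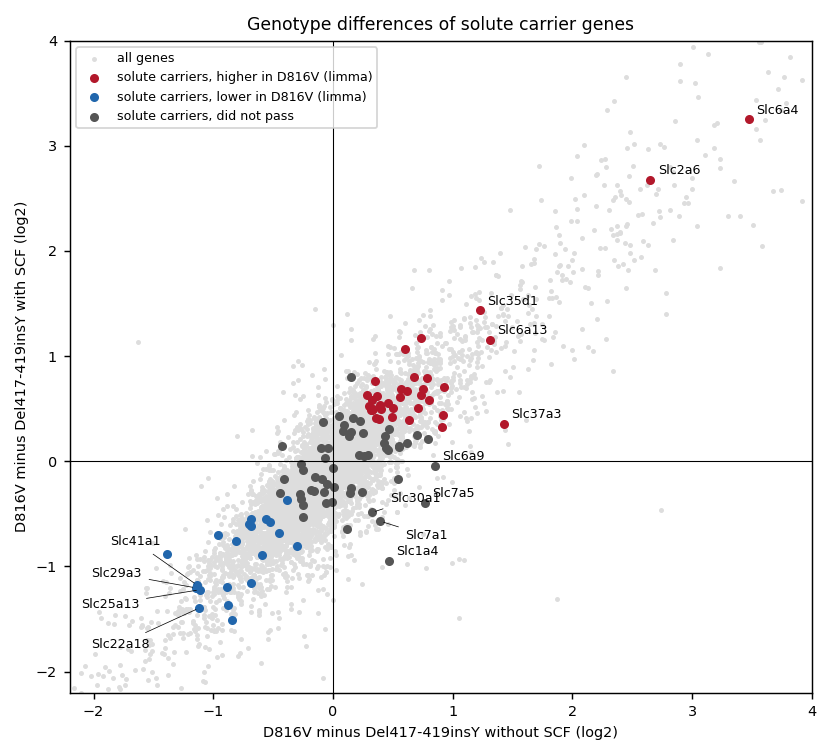
Each point is a gene, placed by its log2 difference between D816V and Del417-419insY cells without SCF (x axis) and with SCF (y axis); grey points are all genes within the axes and coloured points the 110 solute carrier genes by their limma call. Slc6a4 and Slc2a6 lie far out at the upper right, and Slc1a4, Slc7a5, Slc7a1 and Slc30a1 lie below 0 with SCF and above 0 without it.

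The genes that separated the lines most were Slc6a4, the plasma membrane transporter that takes up serotonin, and Slc2a6, a hexose transporter found on lysosomes. Slc6a4 stood at -0.26 with SCF and 0.82 without SCF in D816V cells, against -3.51 and -2.65 in Del417-419insY cells. The lines did not overlap, and both were lower with SCF than without. Its mean difference over both conditions was 3.36 (SE 0.12, 10.3-fold higher in D816V cells, limma adjusted p = 0.000166). Slc2a6 had 1.71 and 1.42 in D816V cells with and without SCF, and -0.97 and -1.23 in Del417-419insY cells. Its difference hardly depended on SCF, with 2.68 with it and 2.65 without it, and the mean corresponded to 6.35-fold (SE 0.11, limma adjusted p = 0.000221). Each of these genes rests on 1 probe set.

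Mast cells make and store serotonin, and mast cell genes differed between the lines as well. Tph1, the enzyme that starts serotonin synthesis outside the nervous system, was 41.2-fold higher in D816V cells, and Hdc, which makes histamine, was 2.91-fold higher. The summed relative level of the 9 measured mast cell markers was 8.38 with SCF and 16.64 without SCF in D816V cells, against -15.86 and -10.38 in Del417-419insY cells. This sum, which includes Tph1 and Hdc, was higher in D816V cells and lower with SCF in each line, as Slc6a4 was. Hdc alone was also lower with SCF in each line. Tph1 was at 4.99 with SCF and 4.96 without SCF in D816V cells, and at -0.53 and -0.26 in Del417-419insY cells. The part of the mast cell markers in the Slc6a4 difference was not tested. Slc18a2, which loads monoamines into vesicles, did not pass: it stood at 0.00 and 0.41 in D816V cells with and without SCF, against -0.11 and -0.05 in Del417-419insY cells (limma adjusted p = 0.148).

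Besides these, 2 members were 2-fold or more higher in D816V cells in both conditions, which makes 4 of 110 against 5.15% of all genes. Slc35d1, which carries UDP-glucuronic acid and UDP-N-acetylgalactosamine into the endoplasmic reticulum for glycosaminoglycan synthesis, was at 0.85 both with and without SCF in D816V cells and at -0.59 and -0.38 in Del417-419insY cells. That is a 2.52-fold difference (log2 1.33, SE 0.12, limma adjusted p = 0.00187). Slc6a13, a transporter of GABA, betaine and taurine, was at 0.04 and 0.18 in D816V cells, against -1.12 and -1.14 in Del417-419insY cells, 2.36-fold higher (SE 0.12 on the log2 scale, limma adjusted p = 0.00213).

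In the other direction 4 members were 2-fold or more lower in D816V cells in both conditions (all genes 3.79%), and they belong to unlike families. Slc22a18, an imprinted gene for a cation transporter-like protein, was at -1.27 with SCF and -1.50 without SCF in D816V cells, against 0.12 and -0.38 in Del417-419insY cells. Slc29a3, a nucleoside transporter of lysosomes, was at -1.16 and -1.13 in D816V cells, against 0.05 and 0.01. Slc25a13, the aspartate-glutamate carrier citrin of mitochondria, was at -1.02 and -1.03 in D816V cells, against 0.21 and 0.08. Slc41a1, a magnesium exporter, was at -0.58 and -0.64 in D816V cells, against 0.60 and 0.50. All 4 were lower in D816V cells on both pairs of arrays, by 2.23 to 2.39-fold on average, with limma adjusted p from 0.00224 to 0.00261. After cyclic loess 1 member, Slc41a1, was 2-fold or more lower in both conditions, and after quantile normalization 2 were, Slc41a1 and Slc22a18.

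**Figure D2:**
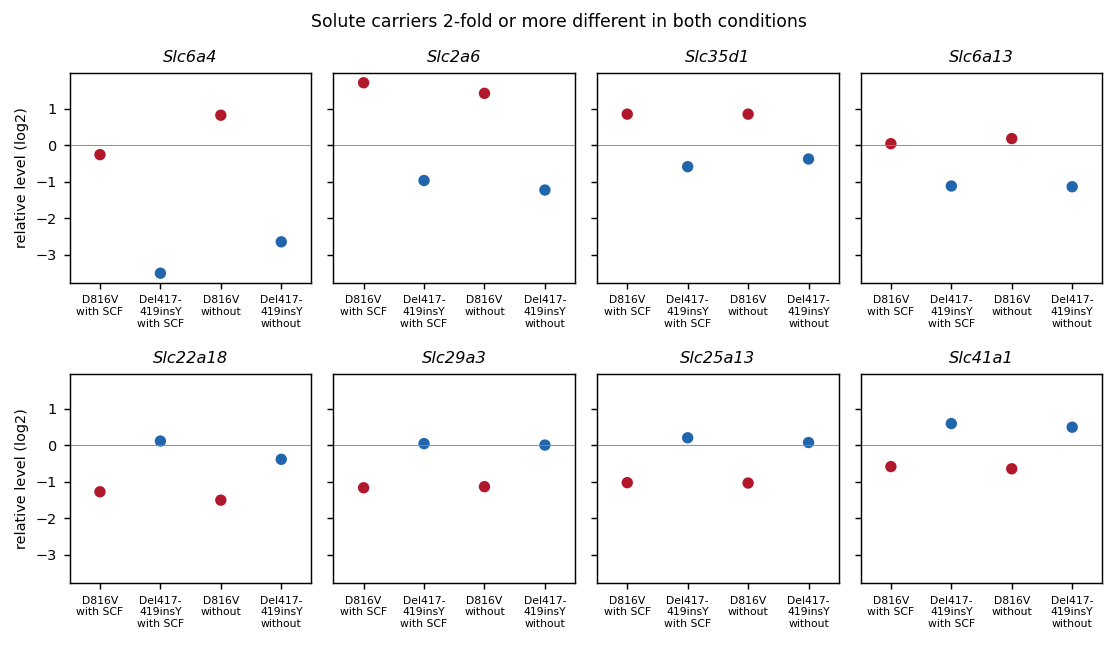
Relative log2 level (y axis, one shared scale) of the 8 solute carrier genes that differed 2-fold or more in both conditions, 1 point per array, with D816V arrays in red and Del417-419insY arrays in blue. In the upper row each red point lies above the blue point of the same condition, and in the lower row below it; Slc6a4 reaches -3.51 in Del417-419insY cells with SCF.

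Sorted by substrate, the metal and heme carriers held 7 higher and 3 lower members of 16. The counts of each class stand against 17.9% higher and 24.7% lower over all genes. The median difference of the metal and heme carriers was 0.35 with SCF and 0.39 without SCF, against -0.14 and -0.08 for all genes. With SCF 12 of 16 were above 0 and without SCF 13, against 2692 and 2836 of all 6404 genes. Without the SCF term 4 of the 7 higher ones did not pass, Slc39a4 (limma adjusted p = 0.0666), Slc48a1 (0.0607), Slc39a7 and Slc31a2. Zinc importers of the SLC39 family stood on both sides. Slc39a4, known as the zinc uptake transporter of the intestine, was at 1.22 and 0.67 in D816V cells with and without SCF, against 0.42 and 0.00 in Del417-419insY cells (1.67-fold higher, limma adjusted p = 0.00893). Slc39a6 was 1.6-fold higher, and Slc39a7, which releases zinc from the endoplasmic reticulum, was 1.38-fold higher. Slc39a10 was 1.78-fold lower and Slc39a11 1.47-fold lower in D816V cells. Slc39a13 and Slc39a14 did not pass (limma adjusted p = 0.37 and 0.0571).

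The zinc exporter of the secretory pathway Slc30a7 was 1.5-fold higher in D816V cells (limma adjusted p = 0.0156), and Slc30a3 did not pass. Slc30a1, the zinc exporter of the plasma membrane, depended on the condition: it was at -0.38 with SCF and 0.23 without SCF in D816V cells, against 0.10 and -0.10 in Del417-419insY cells. Mt2, a metallothionein that binds zinc and that zinc induces, stood at 1.84 and 1.83 in D816V cells with and without SCF, against -0.21 and -1.76 in Del417-419insY cells. It was 7.04-fold higher in D816V cells (SE 0.36 on the log2 scale, limma adjusted p = 0.00479). The magnesium carriers moved apart, with Slc41a3 1.72-fold higher (limma adjusted p = 0.00703) and Slc41a1 2.23-fold lower.

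For iron, heme and copper the differences were small. Slc48a1, which returns heme from lysosomes to the cytosol, was at -0.47 with SCF and 0.00 without SCF in D816V cells, against -1.15 and -0.75 in Del417-419insY cells. It was 1.64-fold higher in D816V cells (limma adjusted p = 0.0091) and lower with SCF in both lines. Slc31a2, of the copper transporter family, was 1.31-fold higher (limma adjusted p = 0.0445), while Slc31a1, the main copper importer, missed the threshold with the same size (limma adjusted p = 0.0519). Slc11a2, the importer of ferrous iron, had 3 probe sets and did not pass (1.22-fold, limma adjusted p = 0.115). The mitochondrial iron importers Slc25a37 and Slc25a28 and the glycine carrier of heme synthesis Slc25a38 did not pass either, with mean differences of -0.08, 0.19 and -0.15.

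**Figure D3:**
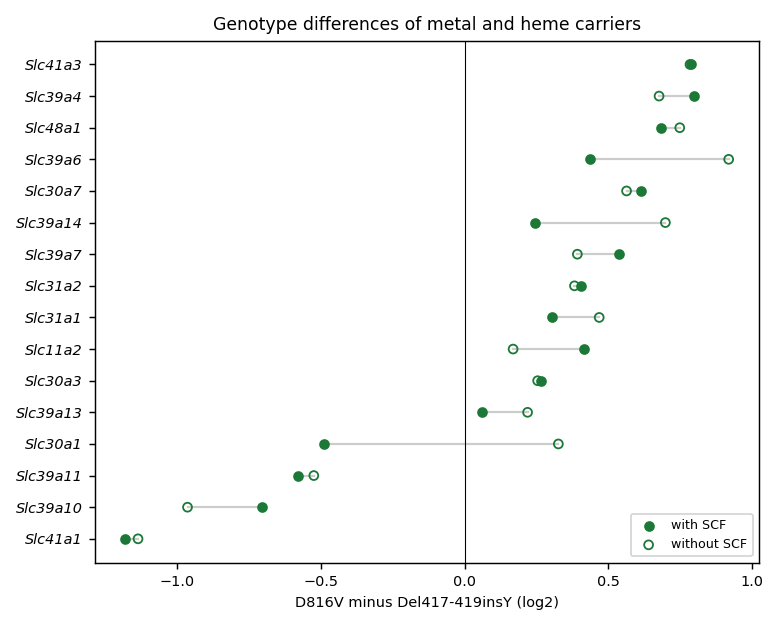
Log2 difference between D816V and Del417-419insY cells (x axis) for each of the 16 metal and heme carriers, with SCF (filled points) and without SCF (open points). Slc41a1, Slc39a10 and Slc39a11 lie below 0 in both conditions, Slc30a1 lies at -0.49 with SCF and 0.33 without, and the other 12 lie above 0.

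Carriers of the Golgi and the endoplasmic reticulum were 6 higher and 2 lower of 13, with medians of 0.18 with SCF and 0.33 without SCF, against -0.14 and -0.08 for all genes, of which 17.9% were called higher and 24.7% lower. Of the 6 higher ones Slc35b1, Slc35b2 and Slc35c1 did not pass without the SCF term, nor did Slc35b4 of the lower ones. Both carriers of the sulphate donor PAPS were higher, Slc35b3 by 1.54-fold and Slc35b2 by 1.43-fold. Slc33a1, which brings acetyl-CoA into the endoplasmic reticulum, was 1.61-fold higher, and Slc35c1, the GDP-fucose carrier, was 1.32-fold higher (limma adjusted p = 0.0458). Slc35b4, a carrier of UDP-xylose and UDP-N-acetylglucosamine, was 1.47-fold lower, and so was Slc35e3, by 1.54-fold. The substrate of Slc35e3 is not established, yet it was counted in this class. Its relatives Slc35e1, Slc35f5 and Slc35g1 were counted as members with no assigned substrate. Slc35a1, Slc35a2 and Slc35a3, for CMP-sialic acid, UDP-galactose and UDP-N-acetylglucosamine, did not pass (limma adjusted p = 0.27, 0.336 and 0.787).

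The 25 mitochondrial carriers were the class with the most members. Their medians were 0.03 with SCF and -0.05 without SCF, against -0.14 and -0.08 for all genes. Among these carriers 5 were higher and 4 lower (all genes 17.9% and 24.7%). In both conditions 11 of them lay within 0.3 of 0 (all genes 27.3%). Slc25a33, a pyrimidine nucleotide carrier, was highest (-0.03 and 0.41 in D816V cells with and without SCF, against -0.73 and -0.52 in Del417-419insY cells). It was 1.76-fold higher in D816V cells (limma adjusted p = 0.00807). Slc25a1, the citrate carrier that supplies fatty acid and sterol synthesis, Slc25a10 for dicarboxylates and Slc25a20 for acylcarnitine were higher by 1.47, 1.41 and 1.37-fold. Without the SCF term Slc25a33 alone of the 5 higher ones passed. Besides citrin, the lower ones were the ATP-magnesium phosphate carriers Slc25a23 and Slc25a24, each 1.57-fold, and the peroxisomal carrier Slc25a17 (1.47-fold), which did not pass under 4 of the 8 alternatives. The second aspartate-glutamate carrier, Slc25a12, which is the counterpart of citrin, had a mean difference of -0.03, and the adenine nucleotide carriers Slc25a4 and Slc25a5 had -0.17 and 0.14.

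Among 10 carriers of sugars and sugar phosphates, 2 were higher and 2 lower. Besides Slc2a6, Slc37a3 of the endoplasmic reticulum was at 0.78 with SCF and 1.75 without SCF in D816V cells, against 0.42 and 0.32 in Del417-419insY cells. The D816V array without SCF stood apart there, and the call (1.86-fold, limma adjusted p = 0.046) was lost after cyclic loess, with a limma adjusted p of 0.071, and without the SCF term, with 0.0755. Slc45a3, of a family that carries sugars with protons, was at -1.27 and -0.66 in D816V cells, against 0.24 and 0.19 in Del417-419insY cells (2.27-fold lower, limma adjusted p = 0.00879), and its 2 probe sets differed by 0.06 in their mean difference. Slc37a4, which brings glucose 6-phosphate into the endoplasmic reticulum, and Slc2a8, an intracellular hexose transporter, did not pass for genotype (limma adjusted p = 0.0924 and 0.205).

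Of the smaller classes, all 3 carboxylate carriers were higher, with Slc16a1, the lactate and pyruvate transporter, at 1.37-fold and Slc16a6 and Slc16a13 at 1.42-fold each. None of these 3 passed without the SCF term. Of 4 vitamin and choline carriers 3 were higher. The thiamine transporter Slc19a2 was at 0.84 and 0.83 in D816V cells with and without SCF, against -0.33 and 0.10 in Del417-419insY cells (1.94-fold, limma adjusted p = 0.00858). Its 2 probe sets gave unlike mean differences, 0.57 and 1.34. The ascorbate transporter Slc23a2 was 1.52-fold higher and the folate transporter Slc19a1 1.34-fold. Without the SCF term Slc23a2 and Slc19a1 did not pass, which left Slc19a2. The choline transporter Slc44a2 did not pass (limma adjusted p = 0.112). The fatty acid transporter Slc27a1 was 1.79-fold higher (limma adjusted p = 0.0133).

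Of 6 carriers for organic ions, amines, peptides and urea, 2 were higher and 3 lower. Beside Slc22a18, the urea transporter of red cells Slc14a1 was 1.72-fold lower and the peptide transporter Slc15a2 1.89-fold lower in D816V cells, while Slc17a9, which loads ATP into vesicles, was 1.32-fold higher and did not pass without the SCF term. Of 3 nucleoside and nucleobase carriers, Slc43a3 was 1.56-fold higher, Slc29a3 lower and Slc29a1, the main plasma membrane nucleoside transporter, did not pass (limma adjusted p = 0.0679). Of 6 carriers of inorganic ions, the potassium chloride cotransporter Slc12a7 was 2.06-fold lower (-0.48 with and without SCF in D816V cells, against 0.71 and 0.41 in Del417-419insY cells, limma adjusted p = 0.00476). The phosphate transporter Slc20a1 was 1.33-fold higher (limma adjusted p = 0.0442), and did not pass without the SCF term. Of 5 members with no assigned substrate Slc35f5 was 2.20-fold lower, and Slc35g1 had the highest mean difference, 0.48, which did not pass. Of the 2 scaffold genes Slc9a3r1 was 1.36-fold higher and Slc9a3r2 1.30-fold lower. Slc9a3r2 lost its call under 6 of the 8 alternatives and Slc9a3r1 without the SCF term.

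**Figure D4:**
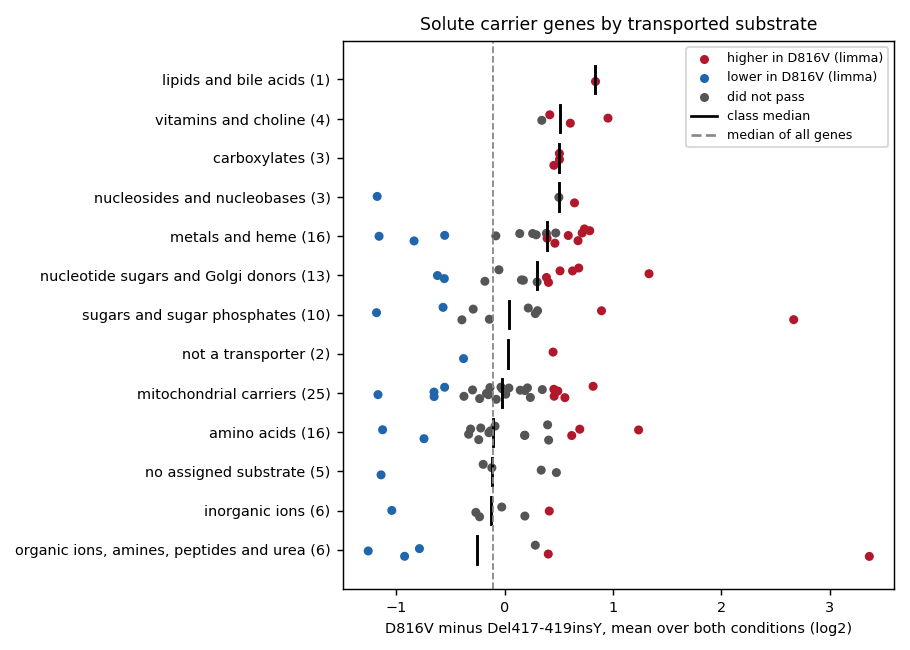
Mean log2 difference between D816V and Del417-419insY cells over both conditions (x axis) for each solute carrier gene, by transported substrate, with the number of genes in brackets; black bars are class medians and the dashed line is the median of all genes, -0.10. Metal and heme carriers lie mostly right of the dashed line, the 25 mitochondrial carriers lie around it, and the points furthest right are Slc6a4 and Slc2a6.

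Without SCF the difference D816V minus Del417-419insY was above 0 for 9 of 16 amino acid carriers, with a median of 0.43 (all genes -0.08). With SCF it was above 0 for 4 of 16, with a median of -0.23 (all genes -0.14). Over all 6404 genes it was above 0 for 2836 without SCF and for 2692 with SCF. For 5 of the 16 carriers the difference was above 0 without SCF and below 0 with it. The fit called 3 higher, Slc6a13, the neutral amino acid exchanger Slc7a8 (1.62-fold) and Slc1a5 (1.54-fold), and 2 lower, both of the SLC38 family. The call of Slc1a5 was lost without the SCF term (limma adjusted p = 0.305). Slc38a2, a sodium-coupled importer that cells induce when amino acids are short, was at -1.11 and -0.85 in D816V cells with and without SCF, against 0.26 and 0.03 in Del417-419insY cells (2.18-fold lower, limma adjusted p = 0.00637). Slc38a7 was 1.67-fold lower, and Slc38a9, the lysosomal arginine sensor of the mTORC1 pathway, did not pass (limma adjusted p = 0.177). The 2 probe sets of Slc38a9 gave mean differences of -0.52 and 0.08. Of the 33 members with 2 or more probe sets, 6 had probe sets with genotype differences of opposite sign. In 4 of the 33 the mean differences lay 0.5 or more apart, among them Slc19a2 and Slc6a9 (0.10 and 0.71).

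A further question of the design is what added ligand does in each line. No solute carrier gene passed the limma fit for SCF, nor did any of the 6404 genes. Unadjusted p was under 0.05 for 20 members, 18.2% of them and 18.5% of all genes, and the smallest adjusted p of a member was 0.129, that of Slc6a4. After cyclic loess Slc6a4 passed, of 42 genes in all. With the probe set of the largest range Slc6a4 and Slc1a5 passed, of 107 genes in all. That probe set is picked by its range over the same 4 arrays, which favours large differences. After median centring 4 members passed, Slc6a4, Slc1a5, Slc6a20a and Slc2a8, of 256 genes in all. No member passed after quantile normalization (2 genes in all) or with an intensity trend (10 genes in all). With robust eBayes or a range of 0.2 or more no gene passed. In D816V cells 5 members were 2-fold or more lower with SCF and none higher (4.55%, against 1.31% of all genes lower and 0.328% higher). In Del417-419insY cells none was 2-fold lower or higher (0.547% and 0.328% of all genes). After cyclic loess or quantile normalization 1 member of 110, Slc1a5, was 2-fold lower with SCF in D816V cells, against 50 and 35 of the 6404 genes, so that the share of members was then near that of all genes. After median centring 2 members were, Slc1a5 and Slc1a4, against 62 of all genes.

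Of these 5, Slc6a4 has been described and 4 carry amino acids. Slc1a5, the glutamine and neutral amino acid exchanger, was at -0.41 with SCF and 0.86 without SCF in D816V cells, against -0.74 and -0.04 in Del417-419insY cells. It was lower with SCF in both lines, by -1.28 in D816V and -0.70 in Del417-419insY cells, although in Del417-419insY cells its 2 probe sets gave -1.40 and 0.01. Slc6a20a, a proline transporter, was at -0.53 and 0.55 in D816V cells, against -0.71 and -0.07 in Del417-419insY cells. The arginine and lysine transporter Slc7a1 was at -0.87 and 0.20 in D816V cells, against -0.30 and -0.19 in Del417-419insY cells, so its SCF difference was -1.07 in D816V cells and -0.10 in Del417-419insY cells.

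Slc1a4, which carries alanine, serine, cysteine and threonine, showed the widest gap between the lines. It was at -1.19 with SCF and -0.07 without SCF in D816V cells, against -0.24 and -0.54 in Del417-419insY cells. The SCF difference was -1.12 in D816V cells, where its 3 probe sets ranged from -1.42 to -0.65, and 0.30 in Del417-419insY cells, where they ranged from -0.03 to 0.63. Slc7a5, the large neutral amino acid transporter, and Slc3a2, the heavy chain it needs to reach the membrane, went the same way. Slc7a5 was at -0.56 and 0.38 in D816V cells, against -0.16 and -0.39 in Del417-419insY cells. Slc3a2 was at 0.05 and 0.45 in D816V cells, against 0.22 and -0.09 in Del417-419insY cells. Slc6a9, the glycine transporter that developing red cells use for heme, was at -0.46 and 0.36 in D816V cells, against -0.42 and -0.50 in Del417-419insY cells.

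Over the class, 13 of 16 amino acid carriers were lower with SCF in D816V cells by any amount, with a median of -0.35. Of all 6404 genes 3587 were, with a median of -0.05. In Del417-419insY cells 6 of 16 were lower with SCF, with a median of 0.09, against 2865 of all genes and a median of 0.03. A difference of -0.4 or below in D816V cells was found for 7 of 16 (43.8%, against 14.7% of all genes), and 3 of these 7 were above 0 in Del417-419insY cells. With 1 array per group the difference between the lines in their SCF response was not tested. Among all members 8 had SCF differences of 0.2 or more with opposite signs in the lines (7.27%, all genes 4.45%), among them Slc1a4, Slc7a5, Slc3a2 and Slc38a2. Under the scalings and with the largest-range probe set the class median in D816V cells lay between -0.44 and -0.20, and in Del417-419insY cells between 0.04 and 0.14.

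**Figure D5:**
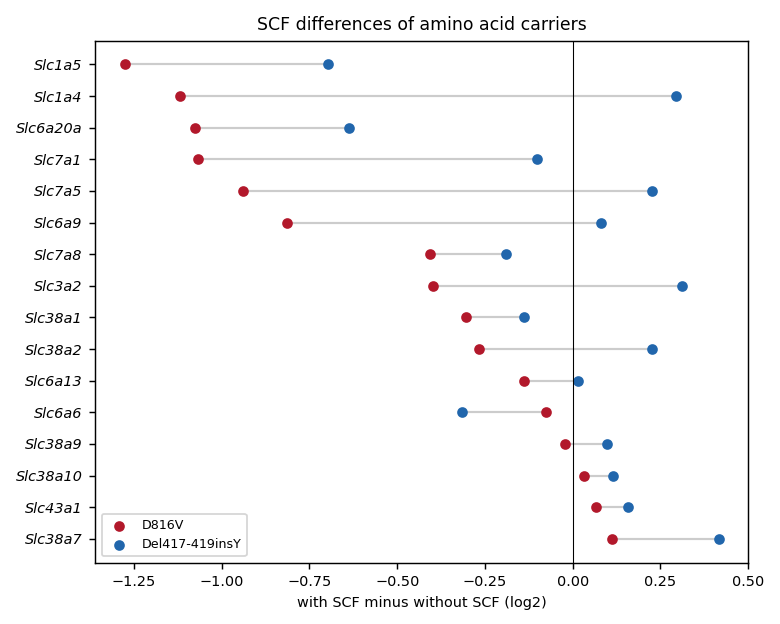
Log2 difference with SCF minus without SCF (x axis) for each of the 16 amino acid carriers in D816V cells (red) and Del417-419insY cells (blue), joined by a line. Red points reach -1.28 for Slc1a5, and for Slc1a4, Slc7a5 and Slc3a2 the red point lies below 0 and the blue point above it.

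Several amino acid carrier genes are known targets of ATF4, a factor of the response to amino acid shortage, which binds a composite element. Promoter windows from RefSeq (GRCm38.p6, 250 bases before to 50 after a transcript start) were found for 88 of the 110 members, in 122 windows. The letters TGATGNAA, searched on both strands, were in 3 of these 122 windows (2.46%) and in 3.97% of all 32851. Those 32851 windows were not limited to the 6404 genes of the table. The 3 stretches are shown because 1 belongs to Slc1a4, whose SCF response differed most between the lines. Capitals mark the match, and the line for Slc1a4 holds it on the opposite strand:
Slc1a4: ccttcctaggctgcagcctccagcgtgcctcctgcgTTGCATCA
Slc9a9: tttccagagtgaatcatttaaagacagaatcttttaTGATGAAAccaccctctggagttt
Slc50a1: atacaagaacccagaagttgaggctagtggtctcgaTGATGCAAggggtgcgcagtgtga
They lie at chr11:20332710-20332753 (minus strand), chr9:94669787-94669846 (plus strand) and chr3:89270736-89270795 (minus strand), each upstream of or across a transcript start.

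These 3 genes did not share a response. Slc9a9, a sodium proton exchanger of endosomes, was at -0.99 with SCF and -0.08 without SCF in D816V cells, against -0.35 and -0.19 in Del417-419insY cells. Slc50a1, a sugar transporter, was at 0.41 and 0.09 in D816V cells, against 0.28 and -0.35 in Del417-419insY cells, higher with SCF in both lines. A match is a description of the letters and not a binding site. Windows of Slc7a5 and Slc1a5 were not analysed here. The STAT letters TTCNNNGAA were in 6 of the 122 windows (4.92%, all windows 8.3%) and the hypoxia letters ACGTG in 37 (30.3%, all windows 19.6%), searched on both strands. A window can hold more than 1 motif. All windows include genes outside the table, so for each motif the shares of members and of all windows come from unlike sets of genes.

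Few members differed with SCF by 0.4 or more in the same direction in both lines. Slc39a4 was higher, by 0.55 in D816V and 0.42 in Del417-419insY cells, the only member on that side (all genes 2.06%). Lower were Slc1a5, Slc6a4, Slc6a20a and Slc48a1, 4 of 110 (3.64%, all genes 4.29%), of which Slc1a5 and Slc6a20a are amino acid carriers. Before rounding, Slc2a8 (0.64 in D816V and 0.4 in Del417-419insY cells) and Slc31a2 (-0.4 and -0.42) fell just short of the cut. Slc48a1 had -0.47 in D816V and -0.41 in Del417-419insY cells, and its 2 probe sets lay between -0.50 and -0.44 and between -0.49 and -0.32. The class of sugar carriers had the highest SCF medians among classes of 5 or more genes, 0.18 in D816V and 0.26 in Del417-419insY cells. Slc2a8 was at 0.89 with SCF and 0.25 without SCF in D816V cells and at 0.55 and 0.15 in Del417-419insY cells, and Slc37a4 at 0.59 and 0.08 in D816V cells and 0.20 and -0.14 in Del417-419insY cells. Across the 110 members the SCF differences in the lines, from separate arrays, gave Pearson's r of 0.42 and Spearman's rho of 0.35, and had the same sign for 66 (60.0%, all genes 65.5%).

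Other transport genes were set beside the solute carriers by lists, whose counts stand against 17.9% higher and 24.7% lower over all genes. Of 19 measured carriers of the superfamily under other names, 3 were higher and 6 lower in D816V cells, with medians of -0.05 with SCF and -0.26 without SCF. Mfsd4a was 5.87-fold higher, and the pyrophosphate transporter gene Ank and Mfsd6 were 7.05 and 6.39-fold lower. Of 14 ABC transporters 1 was higher and 2 were lower, among them the cholesterol exporter Abca1, 5.04-fold lower, while the drug exporter Abcb1b was 2.03-fold higher. Of 15 ion pumps 2 were higher and 2 lower, with the calcium pumps Atp2b1 1.78-fold higher and Atp2b4 2.03-fold lower. Of 16 genes of iron, zinc and copper handling 2 were higher and 2 lower, with Mt2 highest and the copper pump Atp7a 1.95-fold lower. Of 18 genes of amino acid sensing and use 3 were higher and 2 lower. There the serine synthesis genes Psph and Psat1 went apart, 1.85-fold higher and 1.76-fold lower. Of 7 subunits, chaperones and scaffolds 1 was higher and 2 lower, with the kinase Wnk1, which regulates chloride cotransporters, 1.99-fold higher and Sgk3 2.77-fold lower.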

How the data were processed

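RNA of 4 cultures of mouse EML cells was hybridised to Affymetrix M430 2.0 arrays, 1 per culture, per the labels and the series' design text. The submitters' processing notes name RMA, whose output is log2, so the authors' deposited values were read as log2. They lie around 0, and what they are relative to is not stated. The table analysed holds 10861 probe sets, by a filter that no label states. Symbols came from the platform annotation and were checked through the gene ID against RefSeq, which changed no member's symbol; 9633 probe sets had 1 symbol, 264 several and 964 none. A probe set shared by Slc28a2 and Slc28a2b was left out.

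Genotype and SCF were fitted as additive terms with limma 3.58.1 in R 4.3.3 (lmFit, eBayes, two-sided, Benjamini-Hochberg over 6404 genes, prior of 4.1 degrees of freedom and SD 0.127). The fit was tested on simulated data whose noise was drawn independently from the fit's own prior. Such a test cannot show whether the p-values hold for these arrays. Nothing says that the arrays are repeats, so p-values cover no repeat culture. Alternatives were cyclic loess, quantile normalization, median centring, the probe set of the largest range in place of the mean, no SCF term, an intensity trend, robust eBayes and genes with a range of 0.2 or more. The probe set of the largest range was picked by its values on the same 4 arrays. The number of arrays limits the precision.

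Named members were those 2-fold or more different in both conditions, those with SCF differences of 0.4 or more in 1 direction in both lines, the 6 with the largest gap between the genotype differences, the highest and lowest of each class of 3 or more, and Slc3a2. Of the 3 highest and 3 lowest genes of each other list, some are given. Further members are named to describe each class, chosen after their values were seen. Members and lists were chosen with earlier results of these data known.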

Additional observations from a re-analysis of the deposited data

Results flagged for a closer look

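For 8 of the 110 solute carrier genes (7.27%, all genes 4.45%) the SCF differences of the lines had opposite signs and were 0.2 or more in each. The difference between the lines was not tested, since each group had 1 array. The SCF difference in D816V cells minus that in Del417-419insY cells was -1.41 for Slc1a4, -1.16 for Slc7a5, -0.81 for Slc30a1, -0.71 for Slc3a2, -0.59 for Slc29a1, -0.49 for Slc38a2 and -0.47 for Slc15a2. For these 7 the gene was lower with SCF in D816V cells and higher in Del417-419insY cells. The other way round was Slc27a1, with 0.47. The signs of all 8 held after cyclic loess, quantile normalization and median centring, with Slc38a2 at -0.01 in D816V cells after quantile normalization. With the probe set of the largest range the difference of Slc1a4 in Del417-419insY cells was -0.03, and the other 7 kept their signs.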

How the results depend on the processing

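Of the 33 genes named by rule, 24 passed the genotype fit and 17 of these passed under all 8 alternatives. Of the 35 higher and 20 lower members, 34 and 17 kept their call after cyclic loess, 35 and 18 after quantile normalization, 35 and 19 after median centring, 26 and 18 with the largest-range probe set, and 14 and 16 without the SCF term, and none changed sign. Without the SCF term 14 members in all were higher and 16 lower. More were then called lower than higher, as over all genes (690 higher and 913 lower). Cyclic loess gave 5 members 2-fold lower with SCF, 2 without SCF, 1 in both conditions and 1 lower with SCF in D816V cells; quantile normalization gave 2 in both conditions and 1 lower with SCF in D816V cells, and median centring gave 2 of the last kind. The largest-range probe set gave 9 members 2-fold higher without SCF. For SCF the fit called 1 member after cyclic loess, 4 after median centring and 2 with the largest-range probe set. The member median of the genotype difference with SCF was 0.28 after median centring. Mean genotype differences that did not pass changed sign for Slc1a4 (0.08 after cyclic loess, 0.03 with the largest-range probe set), Slc7a1 (0.12, 0.09 and 0.03 after cyclic loess, quantile normalization and median centring) and Slc30a1 (0.04 after each). Slc44a2 and Slc6a20a passed after each of these 3 scalings, Slc6a9 after cyclic loess and median centring, and Slc35g1 after median centring. The causes were not tested. No paired analysis was possible because each group has 1 array and the labels give no replicate numbers, and no array could be left out of the fit, which has 1 residual degree of freedom. Signal over background was not analysed here, so what dim probe sets limit is unknown.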
